A study of Mus musculus with 4 samples.

Results

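The genes described here were 8 genes by which cells recognise and engulf dying cells: the TAM receptors *Axl*, *Mertk* and *Tyro3*, their ligands *Gas6* and *Pros1*, the bridging protein *Mfge8*, and the receptors *Timd4* and *Stab1*. They were found by symbol among the 23337 genes measured, and all 8 were present. The set was chosen with results of these data known, and *Axl* was selected on its rise in read counts between these same WT and *Sirt6* cKO libraries, so its values are given as a description without a test.

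When a cell dies by apoptosis, phosphatidylserine moves to the outer face of its membrane and marks it for uptake, which is called efferocytosis. GAS6 and protein S (*Pros1*) hold phosphatidylserine at one end and TAM receptor tyrosine kinases at the other, while MFG-E8 links it to αv integrins. TIM-4 (*Timd4*) and stabilin-1 (*Stab1*) bind the lipid directly. The thymus disposes of very large numbers of apoptotic thymocytes, and its macrophages are the cells best known for this. TAM receptors also restrain innate immune signaling.

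RNA-seq was performed on medullary thymic epithelial cells (mTECs) sorted as CD45-EPCAM+UEA-1+Ly51- from the thymus of 4-week-old C57BL/6 mice. The WT group consisted of littermates or age-matched mice that lacked *Foxn1*-Cre, and the *Sirt6* cKO group carried *Foxn1*-Cre with *Sirt6* loxp/loxp, labelled Sirt6-/-. *Foxn1*-Cre is driven by a promoter of thymic epithelium, so the deletion is aimed at epithelial cells and not at thymic macrophages or thymocytes. Each group had 2 libraries, and the sources do not say whether mice were pooled, so the tests measure the spread between these libraries.

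The libraries held between 61102704 and 65907745 counts. *Sirt6* itself was at 12.2 and 15.6 TPM (a level scaled for transcript length and library depth) in the WT libraries and at 18.8 and 16.8 TPM in the libraries labelled *Sirt6* cKO. It was therefore not lower under the cKO label (log2 fold change 0.37, SE 0.32, adjusted p = 0.800 by edgeR). These counts cover the whole gene, and which exons the loxP sites flank was not given in the sources used here, so they do not check the deletion, which the study examined separately by western blot of cultured thymic epithelial cells and by PCR on RNA of sorted cells. The defining mTEC markers were present in each library, with *Epcam* at 798 and 835 TPM in WT and 1060 and 1201 TPM in *Sirt6* cKO, and *Aire* at 395 and 495 against 632 and 754 TPM. *Ptprc*, which encodes the CD45 that the sort excluded, was nevertheless present at 145 and 106 TPM in WT and 177 and 129 TPM in *Sirt6* cKO. RNA of hematopoietic genes was thus part of these libraries. In bulk RNA, fewer cells of a type and less RNA per cell cannot be told apart.

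The TAM receptor genes lie apart in the mouse genome (GRCm38, GENCODE M21). *Axl* spans chr7:25757273-25788705 on the minus strand with 20 exons in its longest transcript. *Mertk* (chr2:128698956-128802894, plus strand, 19 exons) and *Tyro3* (chr2:119797733-119818104, plus strand, 20 exons) lie on 1 chromosome. For each of the 8 genes, no stretch of 50 bases in its longest transcript recurred exactly in another gene. The 250 bases before the RefSeq start site are shown for *Axl* and *Timd4*, the members with the greatest difference in each direction, and for the other TAM receptors as relatives of *Axl*. RefSeq starts *Tyro3* later than GENCODE does, so its window lies inside the gene span given here. Sequences are from RefSeq on GRCm38.p6, are written 5′ to 3′ on the gene's own strand, and carry the GC box (GGGCGG on either strand, the core of Sp and Klf factor sites) in capitals.
Axl, chr7:25788734-25788983, minus strand: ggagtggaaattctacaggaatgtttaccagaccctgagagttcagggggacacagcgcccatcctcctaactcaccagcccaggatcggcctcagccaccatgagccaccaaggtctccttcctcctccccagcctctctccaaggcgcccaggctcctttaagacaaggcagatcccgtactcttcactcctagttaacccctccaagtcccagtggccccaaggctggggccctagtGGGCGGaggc
Mertk, chr2:128698665-128698914, plus strand: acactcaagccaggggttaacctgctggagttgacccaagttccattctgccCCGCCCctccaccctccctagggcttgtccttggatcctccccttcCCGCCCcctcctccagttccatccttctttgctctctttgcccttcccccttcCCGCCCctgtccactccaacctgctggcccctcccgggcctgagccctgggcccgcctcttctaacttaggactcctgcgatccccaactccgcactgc
Tyro3, chr2:119799264-119799513, plus strand: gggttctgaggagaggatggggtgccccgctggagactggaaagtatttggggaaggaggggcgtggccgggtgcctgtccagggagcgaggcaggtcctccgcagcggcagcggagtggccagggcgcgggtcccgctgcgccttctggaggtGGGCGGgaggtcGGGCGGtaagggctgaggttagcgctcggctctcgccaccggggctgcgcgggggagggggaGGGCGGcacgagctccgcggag
Timd4, chr11:46810549-46810798, plus strand: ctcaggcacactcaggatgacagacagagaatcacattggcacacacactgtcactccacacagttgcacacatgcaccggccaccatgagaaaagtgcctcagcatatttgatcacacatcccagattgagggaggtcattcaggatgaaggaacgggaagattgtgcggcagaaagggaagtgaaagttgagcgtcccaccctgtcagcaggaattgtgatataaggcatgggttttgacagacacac

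The *Axl* window was 60% G and C and held 1 GC box, 10 bases before the start. *Mertk* and *Tyro3* held 3 GC boxes each, *Gas6* 4, *Mfge8* 4 and *Pros1* 5, while *Timd4* and *Stab1* held none. A GC box occurred in 32.7% of 32851 promoter windows of that length. The *Axl* window also held 1 kappaB-like match (GGG, any 5 bases, then CC, found in 45.8% of windows) 81 bases before the start and 1 PU box (GAGGAA, in 23.3% of windows, a core of Ets factor sites) at 130 bases. It held no AP-1 site (TGANTCA, in 6.75% of windows), no interferon-response core (GAAA, any 2 bases, then GAAA, in 2.98%), no TATA box (TATAAA, 12.4%) and no GAS element (TTCNNNGAA, 7.02%), and the *Timd4* window held none of these 7 motifs. All were searched on both strands, and kappaB-like matches can overlap GC boxes. These are matches of letters only.

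*Axl* was about 5 times as abundant in the *Sirt6* cKO libraries as in WT. Its level was 16.1 and 15.9 TPM in WT (2469 and 2306 counts), against 87.1 and 89.2 TPM in *Sirt6* cKO (11599 and 13259 counts). The libraries within a group lay close together and the groups were far apart. The fold change was 5.39, or 2.43 on the log2 scale (SE 0.19). Its 95% interval, 3.88 to 7.50, takes no account of the choice of *Axl* for its rise and is no test. By fold change *Axl* was 262nd of the 18547 genes tested, and 16th of the 10409 genes with a mean of at least 10 CPM (counts scaled to library size), since many genes above it had few counts. These ranks also follow from that choice. Over the alternatives tried, its fold change ranged from 2.34 to 2.49 on the log2 scale.

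*Tyro3*, the TAM receptor best known from the nervous system, was low. It was at 1.84 and 1.55 TPM in WT and at 4.56 and 2.99 TPM in *Sirt6* cKO (222, 177, 505 and 350 counts). Both *Sirt6* cKO libraries lay above both WT libraries, but the difference did not pass the test (log2 fold change 1.16, SE 0.48, adjusted p = 0.600), and its interval ran from 0.962-fold to 5.21-fold. *Mertk*, the TAM receptor most used by macrophages for uptake of apoptotic cells, was at 5.03 and 1.59 TPM in WT and at 2.95 and 2.61 TPM in *Sirt6* cKO. Here WT 1 was the highest and WT 2 the lowest library, so the groups overlapped. The difference was smaller than the spread between the WT libraries (log2 fold change -0.26, SE 0.67, adjusted p = 0.950, interval 0.262-fold to 2.68-fold). WT 1 decided its sign, since the log2 fold change became 0.80 when it was left out.

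The make-up of TAM receptor RNA therefore shifted toward *Axl*, as the stacked levels by library show. The 3 receptors summed to 23.0 and 19.05 TPM in WT and to 94.6 and 94.8 TPM in *Sirt6* cKO. *Axl* made up 70.1% and 83.5% of that sum in WT and 92.1% and 94.1% in *Sirt6* cKO. The *Mertk* share was 21.9% and 8.36% in WT and 3.12% and 2.75% in *Sirt6* cKO. These shares follow from the choice of *Axl* and are not an independent result. Whether *Axl* differed from *Tyro3* in its change was not tested.

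**Figure D1:**
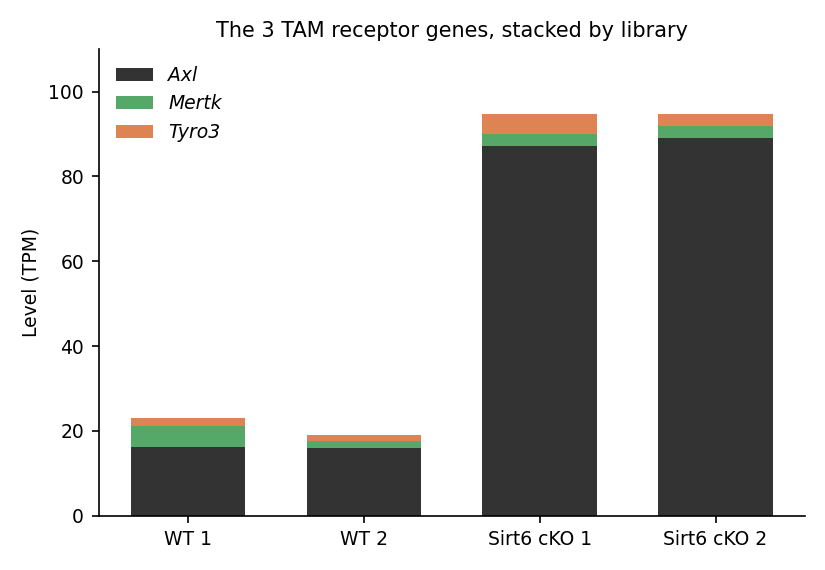
Levels of the 3 TAM receptor genes (vertical axis, TPM) stacked for each of the 4 libraries (horizontal axis). *Axl* filled 70.1% and 83.5% of the WT bars and 92.1% and 94.1% of the *Sirt6* cKO bars, and the bars rose from 23.0 and 19.05 to 94.6 and 94.8 TPM.

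The ligands were abundant in the sorted cells of both genotypes. *Gas6*, which activates all TAM receptors and Axl with the greatest affinity, was the most abundant of the 8 genes in each library, at 159 and 218 TPM in WT and 182 and 225 TPM in *Sirt6* cKO. The groups overlapped and no difference was detected (log2 fold change 0.12, SE 0.22, adjusted p = 0.926). Its interval, 0.741-fold to 1.60-fold, left out a change of the size seen for *Axl*. The TPM of *Gas6* per TPM of *Axl* was 9.86 and 13.7 in WT and 2.08 and 2.52 in *Sirt6* cKO. Like the shares above, this ratio follows from the choice of *Axl* and is not an independent result. In GENCODE M21, 34 exonic bases of *Gas6* (chr8:13465374-13494490, minus strand) overlap *Tmem255b* on the other strand, and the strand setting of the counting is not given in the sources used here.

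*Pros1* (chr16:62854307-62929346, plus strand), whose product protein S activates Tyro3 and Mertk and also serves in anticoagulation, was at 36.7 and 42.3 TPM in WT and 42.7 and 61.03 TPM in *Sirt6* cKO. Both *Sirt6* cKO libraries were above WT, 1 of them by less than 1 TPM. The difference did not pass the test (log2 fold change 0.40, SE 0.26, adjusted p = 0.717, interval 0.844-fold to 2.07-fold). *Mfge8* (chr7:79133768-79149060, minus strand) was at 49.5 and 99.0 TPM in WT and 63.7 and 124 TPM in *Sirt6* cKO. The spread within each genotype was wider than the distance between the genotypes, with WT 2 and *Sirt6* cKO 2 high, and no difference was detected (log2 fold change 0.35, SE 0.44, adjusted p = 0.882, interval 0.588-fold to 2.77-fold).

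*Timd4* was the member that fell. TIM-4 tethers apoptotic cells to tissue-resident macrophages, and *Timd4* (chr11:46810800-46844332, plus strand) was at 20.8 and 14.2 TPM in WT and at 4.82 and 7.15 TPM in *Sirt6* cKO (1364, 881, 291 and 455 counts). The groups did not overlap. The log2 fold change was -1.54 (SE 0.40, interval -2.55 to -0.53), which is 2.91-fold lower. It passed the unadjusted p of 0.05 that the study used for its gene counts but not an adjusted p of 0.05 (adjusted p = 0.541 by edgeR and 0.0586 by DESeq2). For differentially expressed genes, the methods of the study give an adjusted p under 0.05 and a fold change over 2 by DESeq2. Without *Sirt6* cKO 1 it no longer passed the unadjusted p, at a log2 fold change of -1.29.

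*Stab1* (chr14:31139013-31168641, minus strand) encodes a scavenger receptor of sinusoidal endothelium and some macrophages. It was at 2.58 and 1.12 TPM in WT and at 1.25 and 2.39 TPM in *Sirt6* cKO, so that each group had a high and a low library. The log2 fold change was -0.03 (SE 0.60, adjusted p = 0.993), with an interval from 0.348-fold to 2.77-fold, and without WT 1 it was 0.70. In GENCODE M21, 112 exonic bases of *Stab1* overlap *Nt5dc2* on the other strand.

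**Figure D2:**
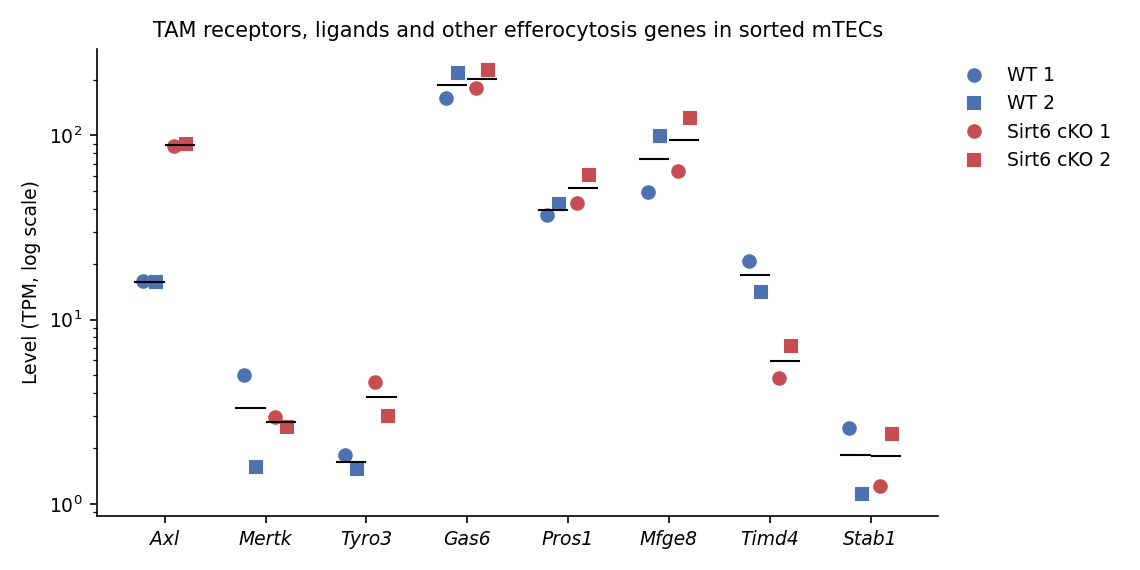
Level of each of the 8 genes (vertical axis, TPM on a log scale) in WT 1 and 2 (blue) and *Sirt6* cKO 1 and 2 (red), with the mean of each pair as a line. *Axl* at 16.1 and 15.9 against 87.1 and 89.2 TPM and *Timd4* at 20.8 and 14.2 against 4.82 and 7.15 TPM are the widest gaps, while the points of *Mertk*, *Gas6*, *Mfge8* and *Stab1* overlap.

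By mean level, the order in WT was *Gas6* (188 ± 41.9 TPM, SD, n = 2), *Mfge8* (74.2 ± 35.0), *Pros1* (39.5 ± 3.95), *Timd4* (17.5 ± 4.65), *Axl* (16.0 ± 0.14), *Mertk* (3.31 ± 2.43), *Stab1* (1.85 ± 1.03) and *Tyro3* (1.70 ± 0.21). The ranges of *Timd4* and *Axl* overlapped there, as did those of *Mertk*, *Stab1* and *Tyro3*. In *Sirt6* cKO *Axl* (88.1 ± 1.45 TPM) stood between *Mfge8* (93.8 ± 42.5) and *Pros1* (51.9 ± 13.0), within the range of *Mfge8* and above that of *Pros1*. *Timd4* was lower there, at 5.98 ± 1.65 TPM, but its range still lay above that of *Tyro3* (3.78 ± 1.11). In WT, *Axl* was the fifth and the fourth most abundant member, and in *Sirt6* cKO the second and the third.

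Across the 8 members, the groups did not overlap for 4, namely *Axl*, *Tyro3* and *Pros1* above WT and *Timd4* below. Among all genes tested 41.9% did not overlap, so such a separation is common with 2 libraries a group. Apart from *Axl*, which was chosen for its rise, 1 of the other 7 members passed the unadjusted p of 0.05, *Timd4*, which was lower. Of all genes tested 8.58% passed, 5.27% higher and 3.32% lower. At an adjusted p of 0.05, none of these 7 was called by edgeR (0.00539% of all genes, or 1 gene) or by DESeq2 (1.83% of all genes). All 8 had passed the filter on low counts.

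**Figure D3:**
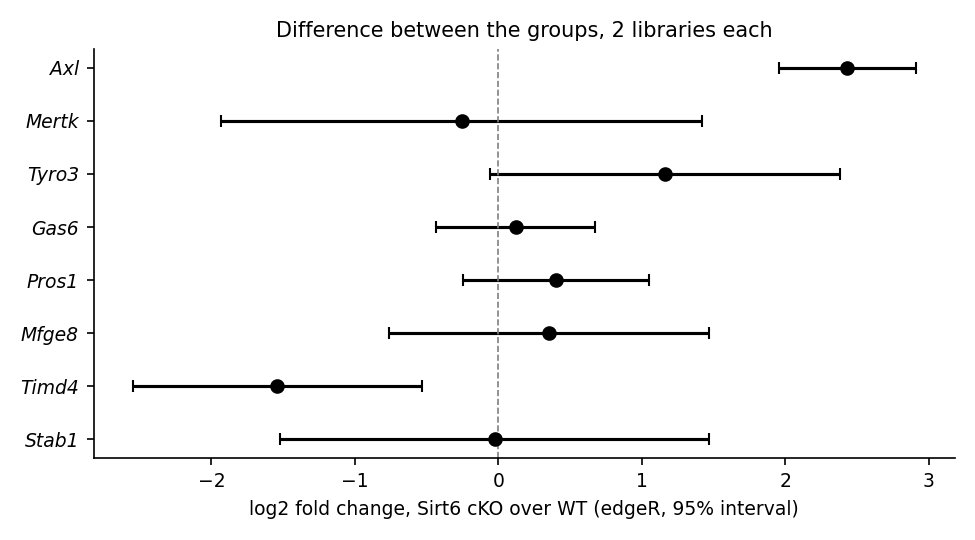
The log2 fold change of *Sirt6* cKO over WT (horizontal axis, edgeR) for each of the 8 genes (vertical axis), with bars for the 95% interval. The interval of *Timd4* (-2.55 to -0.53) leaves out 0, that of *Tyro3* (-0.06 to 2.38) just includes it, and that of *Gas6* (-0.43 to 0.67) is narrow around it, while *Axl* (1.96 to 2.91), chosen for its rise, is shown as a description only.

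*Timd4* did not fall alone, since markers of macrophages moved with it. Of 17 macrophage markers tested, 7 were lower in *Sirt6* cKO at the unadjusted p of 0.05, 1 was higher and 14 had a negative fold change. Of all genes tested, 3.32% were lower and 5.27% higher at that p, and 9343 of 18547 had a negative fold change. The levels of the macrophage markers summed to 11717 and 6981 TPM in WT and to 4444 and 4710 TPM in *Sirt6* cKO. *Lyz2*, which encodes lysozyme and was the most abundant of them, was at 9532 and 5941 TPM in WT and 3664 and 3955 TPM in *Sirt6* cKO (log2 fold change -1.02, SE 0.25). *Emr1*, which encodes the macrophage antigen F4/80, was at 11.7 and 8.56 against 3.59 and 5.69 TPM (log2 fold change -1.12, SE 0.40).

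The lysosomal glycoprotein gene *Cd68* (log2 fold change -1.25, SE 0.32) and *Spic*, a transcription factor of iron-recycling macrophages (-1.38, SE 0.34), were lower as well, as were the genes of C1q given with the bridging proteins. These examples beyond the defining markers were picked after their values were seen. *Csf1r*, the receptor for macrophage colony-stimulating factor, was at 66.5 and 39.4 TPM in WT and 33.2 and 38.6 TPM in *Sirt6* cKO and did not pass (log2 fold change -0.56, SE 0.32, adjusted p = 0.685). *Ptprc* was not lower (0.27, SE 0.24). None of the defining markers *Emr1*, *Csf1r* and *Ptprc* was at 0. The part of macrophage RNA in the *Timd4* difference was not tested. Without *Sirt6* cKO 1, fewer macrophage markers were called lower, and so were fewer of all genes.

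**Figure D4:**
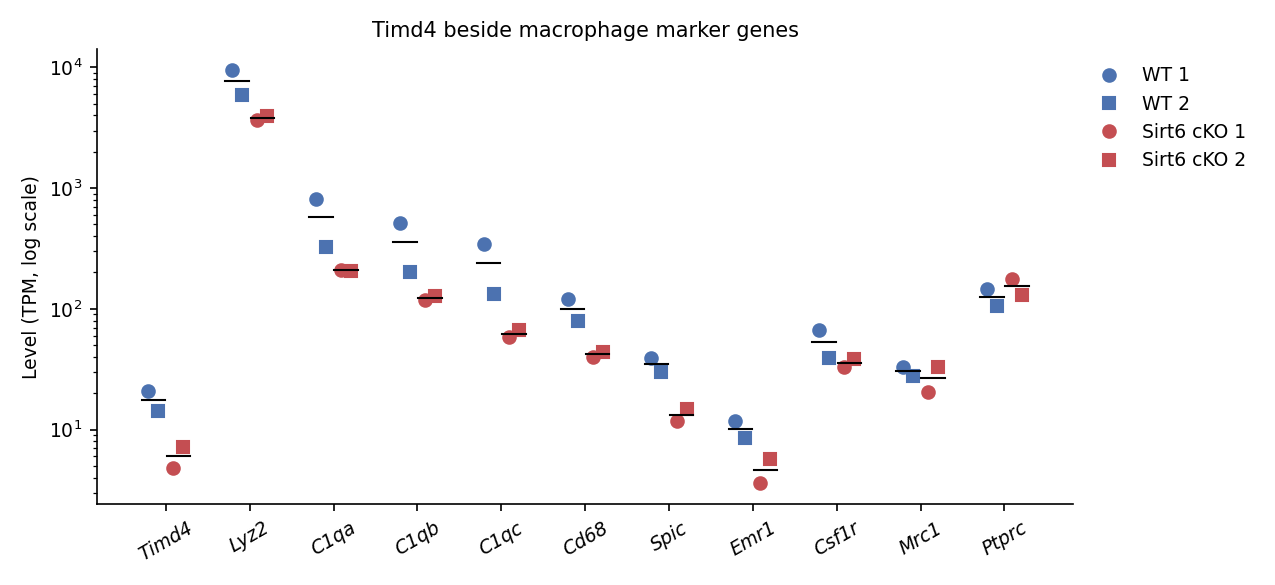
Levels of *Timd4* and 10 macrophage markers (vertical axis, TPM on a log scale) in WT 1 and 2 (blue) and *Sirt6* cKO 1 and 2 (red), with the mean of each pair as a line. *Timd4*, *Lyz2*, the C1q genes, *Cd68*, *Spic*, *Emr1* and *Csf1r* show both red points under both blue points, and *Ptprc* and *Mrc1* overlap.

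WT 1, the library with the most *Timd4* and *Mertk*, also had the most *C1qa* (818 TPM, against 325 TPM in WT 2) and the most *Emr1*. The other libraries did not keep that order. WT 2 had more *C1qa* than *Sirt6* cKO 1 and 2 (212 and 205 TPM) but the least *Mertk*, at 1.59 TPM. *Sirt6* cKO 2 had more *Timd4* than *Sirt6* cKO 1 but slightly less *C1qa*. The part of macrophage RNA in the *Mertk* levels was not tested. For *Stab1*, none of 10 endothelial markers passed the unadjusted p, beside 8.58% of all genes, so a list this short says little. By sign, 3 were positive and 7 negative. The lowest was *Stab2*, at 2.86 and 1.65 TPM in WT and 1.13 and 0.62 TPM in *Sirt6* cKO (log2 fold change -1.36, SE 0.55). *Pecam1*, which encodes CD31, was at 41.1 and 29.1 TPM in WT and 23.3 and 30.3 TPM in *Sirt6* cKO, and *Cdh5*, which encodes VE-cadherin, at 2.85 and 1.42 against 5.02 and 2.89 TPM. Summed endothelial levels were 116 and 94.7 TPM in WT and 91.6 and 95.4 TPM in *Sirt6* cKO.

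Markers of epithelial cells went both ways. Of 16 mTEC markers, 5 were higher and none lower in *Sirt6* cKO at the unadjusted p, among them *Epcam* (log2 fold change 0.48, SE 0.14) and *Aire* (0.65, SE 0.18). By sign, 11 of the 16 were positive and 5 negative, such as *Krt18* (-0.40, SE 0.18), which was not called. Beside these lists, 5.27% of all genes tested were higher and 3.32% lower at that p. The summed mTEC level was 43040 and 42589 TPM in WT and 42209 and 41015 TPM in *Sirt6* cKO. Of 9 tuft cell markers tested, 5 were lower, including *Lrmp* (log2 fold change -0.87, SE 0.25), the most abundant, and the sums were 439 and 457 against 312 and 254 TPM. Among 7 cortical epithelial markers 2 were higher, and among 10 fibroblast markers 1 was lower. None of 12 dendritic cell, 10 thymocyte or 7 B cell markers tested passed. The most abundant of each were *Cd74*, *Lck* and *Blnk*, and for cortical epithelium and fibroblasts *Ctsl* and *Dcn*. The part of these populations in the *Axl* difference was not tested.

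Beyond the 8 genes, the efferocytosis lists held 124 genes in all, of which 122 could be tested. At the unadjusted p, 11 were higher in *Sirt6* cKO and 4 lower, or 12.3% of the tested genes beside 8.58% of all genes. The 11 include *Axl*, whose rise was known when it was chosen. Leaving out the 8 members, 10 were higher and 3 lower of 114, or 11.4%. The median log2 fold change of the 122 genes was 0.03, beside -0.0047 for all genes. Apart from *Axl*, the genes called had adjusted p-values between 0.541 and 0.564 by edgeR, and 4 of them passed an adjusted p of 0.05 by DESeq2, namely *C1qa*, *C1qb*, *C1qc* and *Dock4*. With library size alone 7 were higher, without WT 2 the counts were 6 higher and 9 lower, and without *Sirt6* cKO 1 they were 4 and 3.

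Among 12 bridging proteins, none was higher and 3 were lower (25.0%), and these 3 were the chains of C1q, the complement protein that binds apoptotic cells. *C1qa* was at 818 and 325 TPM in WT and 212 and 205 TPM in *Sirt6* cKO (log2 fold change -1.46, SE 0.45). *C1qb* fell by 1.56 on the log2 scale (SE 0.46) and *C1qc* by 1.93 (SE 0.48). C1q is made largely by macrophages, and these genes also stand in the macrophage list. Without them 4 of 14 macrophage markers tested were lower. *Anxa1*, for annexin A1, was the most abundant bridging gene at 769 to 853 TPM (log2 fold change -0.08, SE 0.14).

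Among 23 phosphatidylserine and other uptake receptors, 3 were higher and 1, *Timd4*, was lower (17.4%). *Itgav*, which encodes the αv integrin chain that MFG-E8 engages, was at 11.9 and 13.0 TPM in WT and 44.8 and 17.2 TPM in *Sirt6* cKO (log2 fold change 1.33, SE 0.47). *Sirt6* cKO 1 lay well above *Sirt6* cKO 2, and both were above WT. Its partner chain *Itgb8*, known in activation of latent TGF-β, was at 17.3 and 27.7 against 59.7 and 40.9 TPM (log2 fold change 1.17, SE 0.34). The other β chains of the list, *Itgb3* (log2 fold change 0.01, SE 0.29) and *Itgb5* (-0.49, SE 1.34), were not called. *Havcr1*, which encodes TIM-1, a relative of TIM-4 that serves as a phosphatidylserine receptor on epithelial cells, was at 15.03 and 7.06 against 30.04 and 25.1 TPM (log2 fold change 1.33, SE 0.44). *Havcr1* thus stood higher where *Timd4* stood lower. *Scarb1*, a scavenger receptor for lipoproteins, was the most abundant at 42.4 to 60.3 TPM (log2 fold change 0.18, SE 0.27).

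Of 23 genes of the engulfment machinery, 2 were higher and none lower, or 8.70%, which is close to the 8.58% of all genes. *Dock4*, a Rac activator, was at 1.93 and 2.06 TPM in WT and 10.02 and 4.54 TPM in *Sirt6* cKO (log2 fold change 1.88, SE 0.46). *Src*, a kinase downstream of integrins, was at 2.49 and 4.84 against 7.35 and 8.73 TPM (log2 fold change 1.15, SE 0.43). *Rac1*, the GTPase that drives the phagocytic cup and the most abundant gene of the list, showed no detectable difference at 145 to 211 TPM (log2 fold change -0.02, SE 0.23).

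Of 19 genes for phosphatidylserine exposure and signals of the dying cell, 2 were higher and none lower, or 10.5%. *Calr*, an eat-me signal when calreticulin reaches the cell surface and otherwise a chaperone of the endoplasmic reticulum, was at 829 and 764 TPM in WT and 1172 and 972 TPM in *Sirt6* cKO (log2 fold change 0.44, SE 0.17). *Cx3cl1*, which encodes the find-me chemokine fractalkine, was at 59.8 and 81.5 against 121 and 112 TPM (log2 fold change 0.73, SE 0.21). Of 24 genes of corpse digestion, 1 was higher, or 4.17%, a share under that of all genes. It was *Abca7*, a lipid transporter (log2 fold change 0.90, SE 0.33), and *Lamp1*, a lysosomal membrane protein and the most abundant, ranged from 558 to 1104 TPM without a detectable difference. Of 18 tested genes of TAM regulation and signaling, 2 were higher, or 11.1%. They were *Pik3r2*, a PI3-kinase regulatory subunit (log2 fold change 0.91, SE 0.28), and *Shc1*, an adaptor of receptor tyrosine kinases (0.62, SE 0.22). *Socs3*, a feedback inhibitor of cytokine signaling, was the most abundant of that list at 255 to 337 TPM and showed no detectable difference (0.12, SE 0.18).

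**Figure D5:**
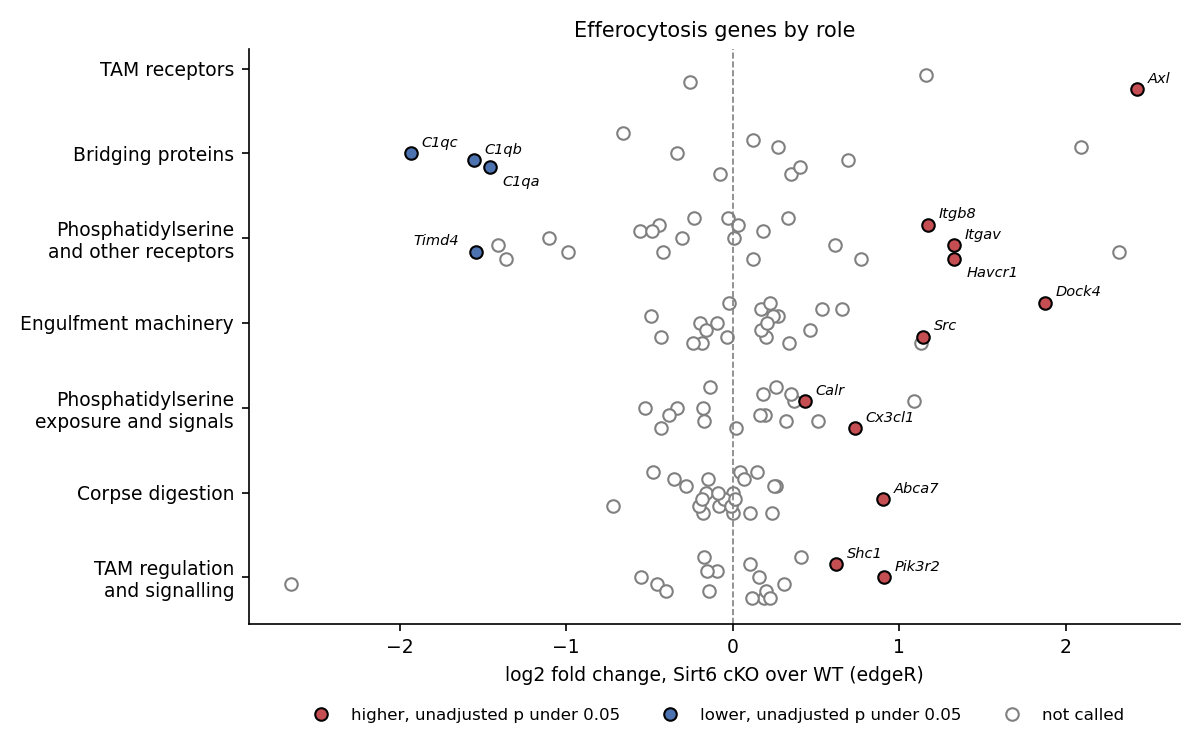
The log2 fold change of *Sirt6* cKO over WT (horizontal axis, edgeR) of 122 tested genes, placed by role (vertical axis, small vertical shifts only separate points). Filled points had an unadjusted p under 0.05, 11 higher in red and 4 lower in blue. *Axl*, the highest of them at 2.43, was chosen for its rise, so its point is a description only.

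The genes whose profile over the 4 libraries was most like that of *Axl* had few counts. Likeness was the Euclidean distance between log2 CPM profiles (prior count of 2), each centred on its own mean. *Slc10a1*, a bile acid transporter of hepatocytes, was nearest at 0.30, with 51 and 39 counts in the WT libraries against 186 and 253 in *Sirt6* cKO. *Onecut3* followed at 0.33, *4930414N06Rik* at 0.36, *Acsm4* at 0.38 and *Creb5* at 0.44. *Creb5*, a transcription factor of the CREB family, went from 50 and 32 counts to 179 and 189, and *4930414N06Rik* had 0 counts in both WT libraries but 10 and 13 in *Sirt6* cKO. With 4 points, such likeness is a description of these libraries, and the rise of these genes follows from their choice.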

How the data were processed

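The authors used FastQC and Trim Galore on the reads, HISAT2 2.1.0 for alignment to mm10 and StringTie 1.3.3 for quantification. The gene annotation and the strand setting were not given in the sources used here. They deposited 1 table of raw counts and 1 table of TPM per library, and 1 line holding the column total was dropped from each TPM table. Counts were tested with edgeR 4.0.16 (TMM, filterByExpr at min.count 10 and min.total.count 15, quasi-likelihood test) in R 4.3.3 over 18547 genes, with Benjamini-Hochberg adjustment. Called means an unadjusted p of 0.05. SE is the log2 fold change divided by the root of F. Alternatives were DESeq2 1.42.0, limma 3.58.1 on TPM, other scalings and filters, a replicate block and each library left out. Replicate numbers mark no shared litter or day in the labels, so libraries were not paired.

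The 8 members and all gene lists were chosen with earlier results of these data known. Named genes are the members, *Sirt6*, called genes of each list (at most 6), the most abundant of each list, defining markers and the 5 genes nearest to *Axl*. *Krt18*, *Itgb3*, *Itgb5* and *Stab2* were added as genes of their lists that were not called. Positions come from GENCODE M21 (GRCm38) and promoters from RefSeq (GRCm38.p6), where all 8 matched. The *Axl*, *Mertk*, *Gas6* and *Timd4* starts of RefSeq lie upstream of those of GENCODE, and that of *Tyro3* lies downstream. Older symbols in the tables were used for some genes (*Emr1* for *Adgre1*). Chi-square per gene between libraries was 166 or more, so none was a copy of another. The values of 1 macrophage marker are not reported here. The procedure was tested on simulated data.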

Additional observations from a re-analysis of the deposited data

How the results depend on the processing

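*Tyro3* and *Pros1* kept their direction and did not pass the unadjusted p of 0.05 in any of the 12 alternatives. *Timd4* kept its direction in all 12 and lost its call in 1, without *Sirt6* cKO 1, with log2 fold changes from -1.86 to -1.24 over the libraries left out. With 1 library left out, the lone library of a group is assumed to vary like the others. The log2 fold change then ranged from -0.87 to 0.80 for *Mertk*, from -0.10 to 0.34 for *Gas6*, from -0.21 to 0.90 for *Mfge8* and from -0.57 to 0.70 for *Stab1*, so that their sign depended on 1 library. *Stab1* was also at 0.0281 with the replicate block and at 0.00186 and 0.0168 in limma on log2(TPM + 1) and log2(TPM + 0.1), a scale that understates changes of low genes. The cause of these sign changes was not tested.

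Of the efferocytosis genes, 7 were higher with library size alone, and 4 to 10 were higher and 3 to 9 lower over the libraries left out. With the replicate block, 8 were higher and 5 lower, beside 697 higher and 449 lower over all genes. *Timd4* was at -1.54 with that block, and no call of the 7 members other than *Axl* changed. Deviations of libraries with the same number correlated at -0.0544 over 18547 genes, so the numbers were not treated as pairs.

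Over all genes, 977 were higher and 615 lower at the unadjusted p. Upper quartile normalization gave 751 and 800, library size alone 721 and 838, and leaving out *Sirt6* cKO 1 gave 421 and 314. At an adjusted p of 0.05, edgeR called 1 gene and DESeq2 354. The adjusted p of *Timd4* ranged from 0.0586 to 0.9996 over the alternatives. Each member had at least 162 counts in each library, and an exact permutation test of 2 libraries against 2 cannot go below p = 0.333.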
